A study of Mus musculus with 29 samples.

Results

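The Cebpa, Cebpb and Cebpd loci were examined for binding of the glucocorticoid receptor (GR) and of C/EBPβ in mouse liver. A ChIP-seq peak or ChIP-exo border was taken as a member where its centre lay in 1 of 3 mm9 windows. The windows were chr2:167460000-167720000 for Cebpb with its downstream region, chr7:35850000-35980000 for Cebpa and chr16:15840000-15940000 for Cebpd. They held 229 of the 107997 peaks in the 9 lists (151 in the Cebpb window, 72 in the Cebpa window and 6 in the Cebpd window) and 1309 of the 255667 borders in the 6 ChIP-exo lists (896, 373 and 40). Membership rested on position alone, but the windows were chosen with earlier results of these data known.

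Livers came from male mice of 12 weeks, backcrossed to BALB/c and kept on a 12 h light cycle. The controls were GR+/+ littermates, called WT here, and the other genotype was GRdim, a germline change in the DNA-binding domain of GR that impairs its dimerisation. Each genotype was collected at 6am, when the light phase began, at 6pm, when the dark phase began, and at 6am after 24 h with subcutaneous prednisolone pellets of 12 mg/kg. ChIP-seq and ChIP-exo of GR cover both genotypes. ChIP-seq of C/EBPβ covers WT only, so GRdim livers have no C/EBPβ value. The labels describe every list as a pool of 2 replicates, so no test between groups was possible, and intervals below cover counting error only. Whole liver was used, and binding in fewer cells and less binding per cell cannot be told apart.

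The C/EBP proteins are basic leucine zipper transcription factors that bind DNA as homodimers or as heterodimers with one another. C/EBPα maintains the metabolic gene programme of hepatocytes, while C/EBPβ and C/EBPδ are known for the acute-phase response and are encoded by genes that glucocorticoids can induce. GR is a nuclear receptor that is activated by glucocorticoids and binds, often as a dimer, to palindromic response elements, and in liver many of its sites lie beside C/EBP sites.

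The ChIP-seq lists give intervals of 200 bp with a score that the authors assigned in an unnamed unit. Scores are set side by side only as the authors' values, with the rank in the list where the list length matters, and ranks from lists of different lengths show no change. The GR lists held 5781, 14270 and 4304 peaks in WT and 3183, 7440 and 3208 in GRdim (6am, 6pm and prednisolone, the order used throughout), and the C/EBPβ lists 21644, 26226 and 21941. A region missing from a list can be a weak one. ChIP-exo trims the precipitated DNA up to the bound protein and so leaves 1 border on each strand. A border's signal is given as tags and as RPM, its tags per M tags of the library. The library sizes implied by the ratio of both ranged from 31.6 M tags (GRdim at 6am, which also had the fewest borders, 14391) to 55.7 M (WT at 6am). Borders of 3 or 4 tags were the lowest listed, so a border that is not listed can also be weak.

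Overlapping peaks of all 9 lists merged into 56 regions, 37 at Cebpb, 16 at Cebpa and 3 at Cebpd. GR was listed in 42 of them (27, 13 and 2). As a description of a window chosen with results known, of 5574 tiles of 260 kb that held any peak, 2 (0.0359%) held at least 27 GR regions, and the median tile held 1. For the Cebpa window, 31 of 8438 tiles of 130 kb (0.367%) held at least 13. The Cebpd window was not unusual in number, since 3372 of 9730 tiles of 100 kb (34.7%) held at least 2. By gene order on the later GRCm38 build, Cebpb stands between Tmem189 and Ptpn1, Cebpa between Cebpg with Gm45095 and Slc7a10, and Cebpd beside Mzt2 and Pkp2 with Spidr overlapping it. The positions of exons and transcription starts on mm9 were not used here, so regions are placed by their distance from the highest-scoring GR peak of their window, negative towards lower coordinates.

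The strongest GR peak of all at Cebpb was the region chr2:167670115-167670363. In WT it scored 23.56, 25.47 and 25.41 and ranked 1, 3 and 1 among all GR peaks of the genome. In GRdim it scored 3.91, 14.89 and 7.32, with ranks 572, 3 and 11. It was therefore listed in all 6 GR lists and near the top of each but the GRdim list of 6am. C/EBPβ scored only 2.41, 4.12 and 2.94 there, ranks 17597, 11321 and 14425, so the leading GR region of this locus was a low C/EBPβ region.

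Of the 8 Cebpb regions with the highest GR scores, 7 lay between -21.2 and 16 kb of that peak. The -21.2 kb region (chr2:167648976-167649216) scored 12.10, 18.09 and 10.62 for GR in WT and 3.94, 7.13 and 3.61 in GRdim. It was the strong GR region that also held strong C/EBPβ, at 9.24, 11.44 and 9.08. The -16.3 kb region (chr2:167653819-167654085) scored 5.56, 9.65 and 4.88 in WT and 3.07, 5.02 and 3.42 in GRdim, with C/EBPβ at 6pm alone (2.41).

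A compact group followed on the other side. The 7.1 kb region (chr2:167677210-167677455) scored 9.86, 17.80 and 11.18 in WT and 2.03, 6.32 and 2.23 in GRdim. The 8.0 kb region (chr2:167678091-167678324) scored 6.32, 11.04 and 4.13 against 3.47, 8.15 and 3.87. The 8.9 kb region (chr2:167678978-167679345) scored 5.02, 11.99 and 6.23 against 2.06, 7.06 and 3.46. All 3 were listed in every GR list with their highest score at 6pm in both genotypes. C/EBPβ was listed at 6pm alone in the 7.1 kb (2.53) and 8.0 kb (3.60) regions, and in each condition in the 8.9 kb region (2.49, 4.23 and 3.45).

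The 16 kb region (chr2:167686105-167686337) differed from these in its genotype pattern. WT scored 15.49, 17.39 and 17.71, ranks 29, 63 and 16, while GRdim listed it at 6pm alone with a score of 2.21 and rank 6156 of 7440. C/EBPβ scored 2.33, 3.42 and 3.05. Farther away, the -79.5 kb region (chr2:167590640-167590888) scored 5.14, 9.03 and 2.74 in WT and 4.01, 4.99 and 2.23 in GRdim.

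**Figure D1:**
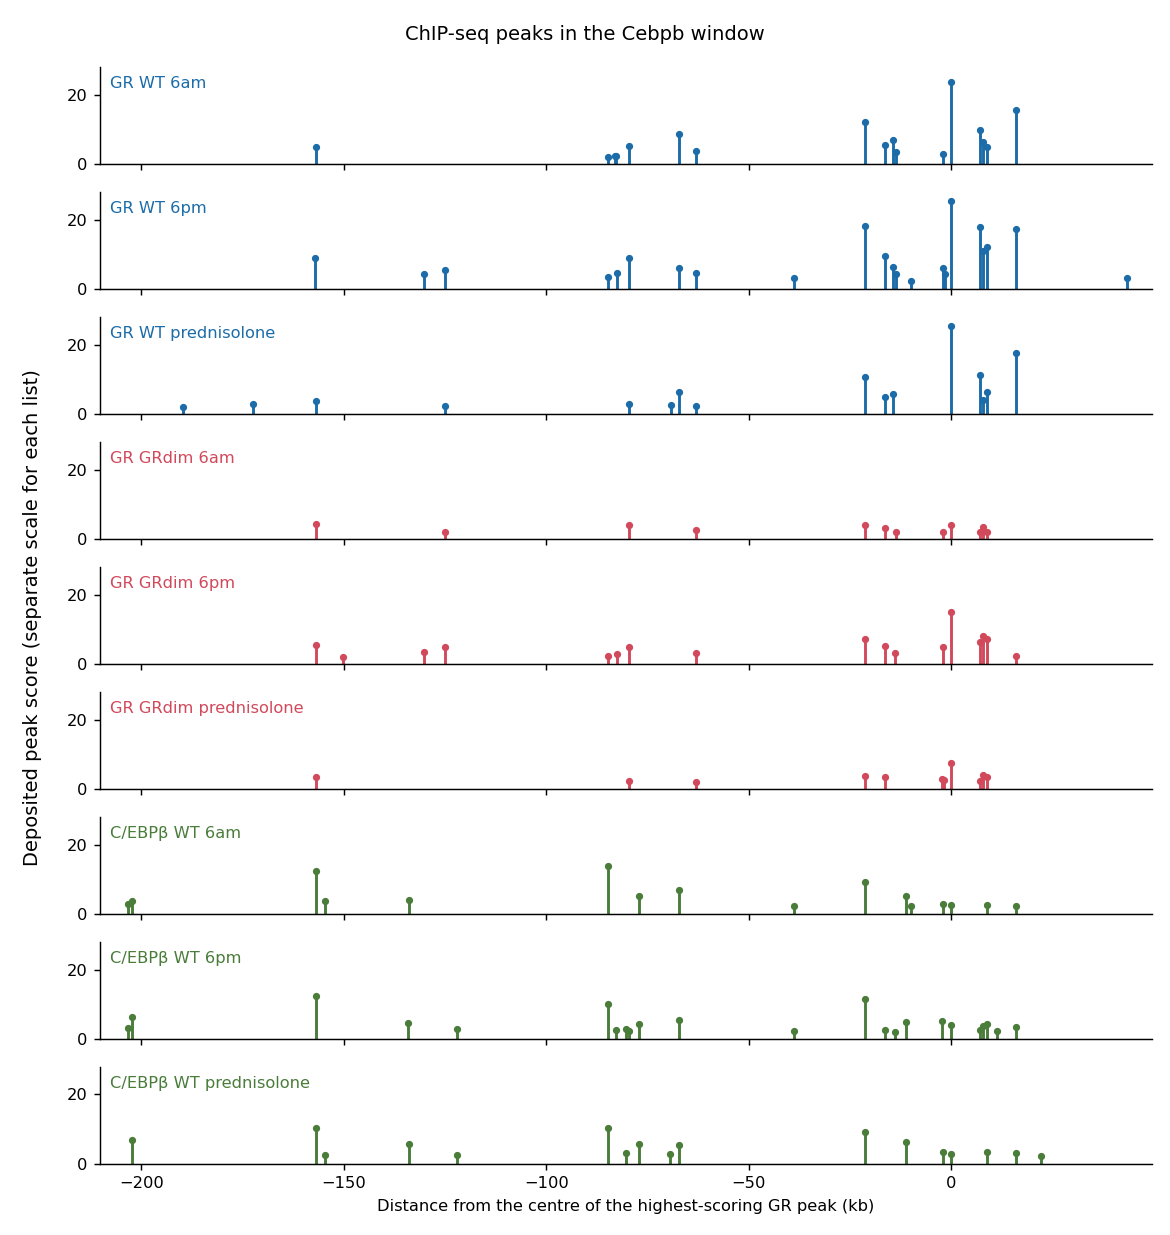
ChIP-seq peaks of the Cebpb window in the 9 lists. The x axis is the distance in kb from the highest-scoring GR peak and each stem is the deposited score of 1 peak, so heights compare peaks within a list. WT GR peaks reach 25.47 at 0 kb, the GRdim 6am list stays at or below 4.27, and C/EBPβ reaches 13.83 at -84.6 kb and 12.50 at -157.0 kb at 6am.

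Regions listed in all 3 WT lists and no GRdim list numbered 3 of 42, 2 of them at Cebpb and 1 at Cebpd. Over the genome 544 of 15314 GR regions (3.55%) were of this kind. The -67.2 kb region (chr2:167602927-167603241) scored 8.68, 6.10 and 6.27 for GR, and C/EBPβ scored 6.87, 5.39 and 5.42 with a centre 110, 104 and 112 bp away from that of GR. The -14.4 kb region (chr2:167655759-167655965) scored 6.89, 6.29 and 5.78 and held no C/EBPβ peak. In both, the highest of the 3 scores was that of 6am.

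In the opposite direction, the -150.2 kb region (chr2:167519980-167520179) was listed for GRdim alone, at 6pm with a score of 2.11, and no ChIP-exo border lay within 100 bp of its centre in any library. GRdim alone held 3 of the 42 regions, against 464 of 15314 (3.03%) over the genome. The other 14 GR regions of the Cebpb window not named here had highest scores between 2.14 and 6.18. The GR region at -157.0 kb (chr2:167513185-167513465) held the highest-scoring GRdim peak of this window at 6am, 4.27 with rank 407, beside 4.91 in WT, and is taken up below for its C/EBPβ peak.

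The Cebpa window carried weaker GR peaks than Cebpb in WT, and a different order of peaks in GRdim. Its highest-scoring GR region was chr7:35875690-35875927, with 8.37, 11.14 and 7.47 in WT, ranks 229, 359 and 347. In GRdim it scored 4.56 and 4.14 at 6am and 6pm and was not listed after prednisolone. C/EBPβ scored 4.62, 6.28 and 3.66, with centres 8, 7 and 17 bp from those of GR.

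The highest GRdim peak of the Cebpa window lay at 77.6 kb (chr7:35953121-35953464). GRdim scored 5.90, 10.47 and 6.84 and ranked 124, 21 and 26, while WT scored 4.30, 7.27 and 3.60 and ranked 1196, 1363 and 1440. In GRdim it was thus the highest peak of the window at every condition, whereas in WT that was the region at 0 kb. C/EBPβ was low there at 2.57, 4.35 and 3.16.

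The other 3 of the 5 highest-scoring GR regions of the window were listed in all 6 GR lists. The 25.9 kb region (chr7:35901593-35901871) scored 3.84, 9.35 and 3.60 in WT and 2.64, 5.13 and 2.79 in GRdim. The 53.3 kb region (chr7:35928962-35929215) scored 3.31, 7.78 and 2.06 against 3.69, 5.51 and 3.27. The 59.4 kb region (chr7:35935106-35935386) scored 3.39, 6.87 and 2.48 against 3.26, 6.01 and 3.87. After prednisolone, WT held its lowest score of the 3 conditions in each of these regions, and in the 53.3 and 59.4 kb regions the GRdim score was above it.

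GRdim alone was listed in 2 regions of the Cebpa window, both with scores near the lowest of their list. The 28.4 kb region (chr7:35904017-35904304) scored 2.03 at 6am and held C/EBPβ at 6.47, 6.09 and 4.60. The 39.6 kb region (chr7:35915335-35915680) scored 2.00 at 6pm and held C/EBPβ at 2.13, 2.56 and 2.05. The other 6 GR regions of this window had highest scores between 2.16 and 4.93.

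**Figure D2:**
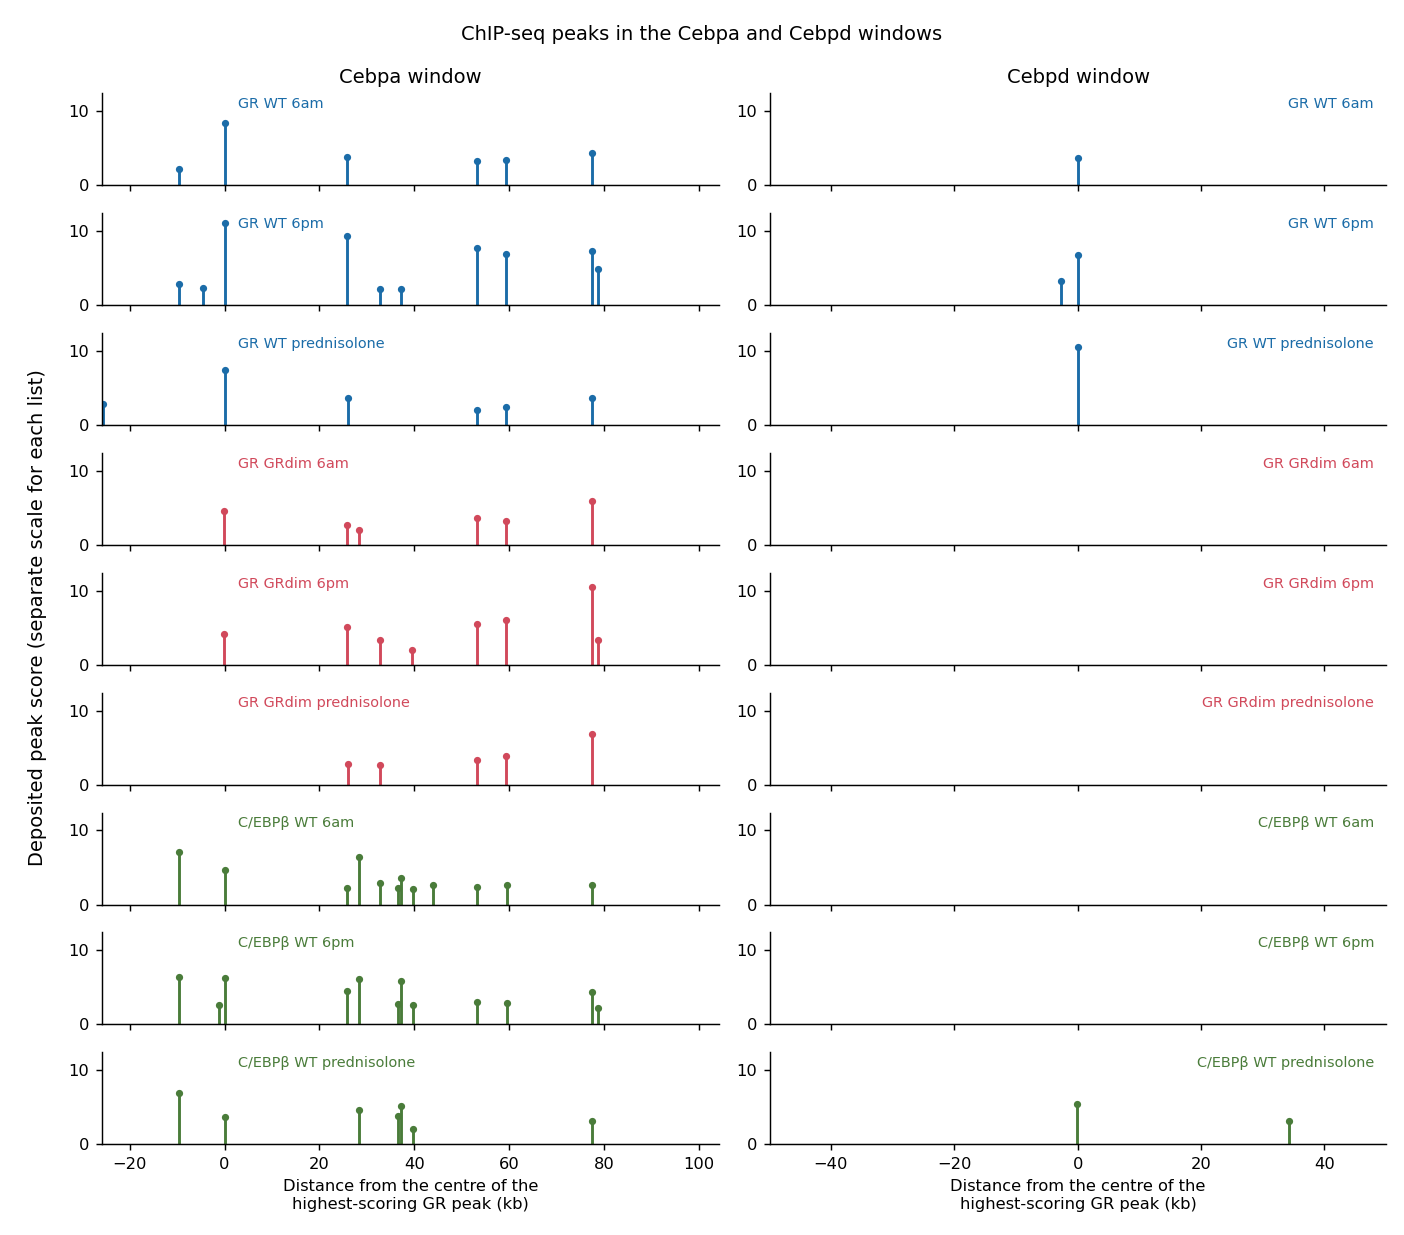
ChIP-seq peaks of the Cebpa (left) and Cebpd (right) windows in the 9 lists, drawn against the distance in kb from the highest-scoring GR peak of each window, with the deposited score of each peak as stem height. In the Cebpa window the highest WT peak is at 0 kb (11.14 at 6pm) and the highest GRdim peak at 77.6 kb (10.47 at 6pm), and the GRdim panels of the Cebpd window are empty.

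The Cebpd window held GR in WT alone. The region chr16:15889721-15890049 scored 3.73, 6.80 and 10.55 in WT and ranked 1649, 1623 and 159. No GRdim list held a peak anywhere in the window, and no GRdim ChIP-exo list held a border there. C/EBPβ was listed only after prednisolone, at 5.42 with its centre 102 bp from that of GR. Its WT score was lowest at 6am and highest after prednisolone, an order that among the named regions only the 16 kb region of Cebpb shared, over a narrower range. The only other GR region, chr16:15887163-15887362 at -2.7 kb, was listed in WT at 6pm with 3.22.

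Across the 3 windows, 24 of the 42 GR regions (17 at Cebpb, 7 at Cebpa and 0 at Cebpd) were listed in both genotypes, beside 48.4% of 15314 GR regions over the genome, and 15 (9, 4 and 2) in WT alone, beside 48.5%. All 6 GR lists shared 13 regions (9, 4 and 0), beside 10.1%. Peak by peak, 16 of 24, 23 of 34 and 13 of 23 WT peaks were found in the GRdim list of the same condition, and the whole-list shares were 47.5%, 49.4% and 48.5%. The counts correspond to 66.7% (Wilson 95% interval 46.7 to 82.0), 67.6% (50.8 to 80.9) and 56.5% (36.8 to 74.4). The 6pm interval lay just above the whole-list share, and the other two intervals held it. That position at 6pm was lost with lists of equal length (81.5%, 63.3 to 91.8, beside 74.8%) and with centres within 100 bp (64.7%, 47.9 to 78.5, beside 48.7%). Conversely, 16 of 18, 23 of 25 and 13 of 16 GRdim peaks were found in WT, beside 86.2%, 94.7% and 65.1%. The window peaks are neighbours on 3 chromosomes and not independent draws.

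**Figure D3:**
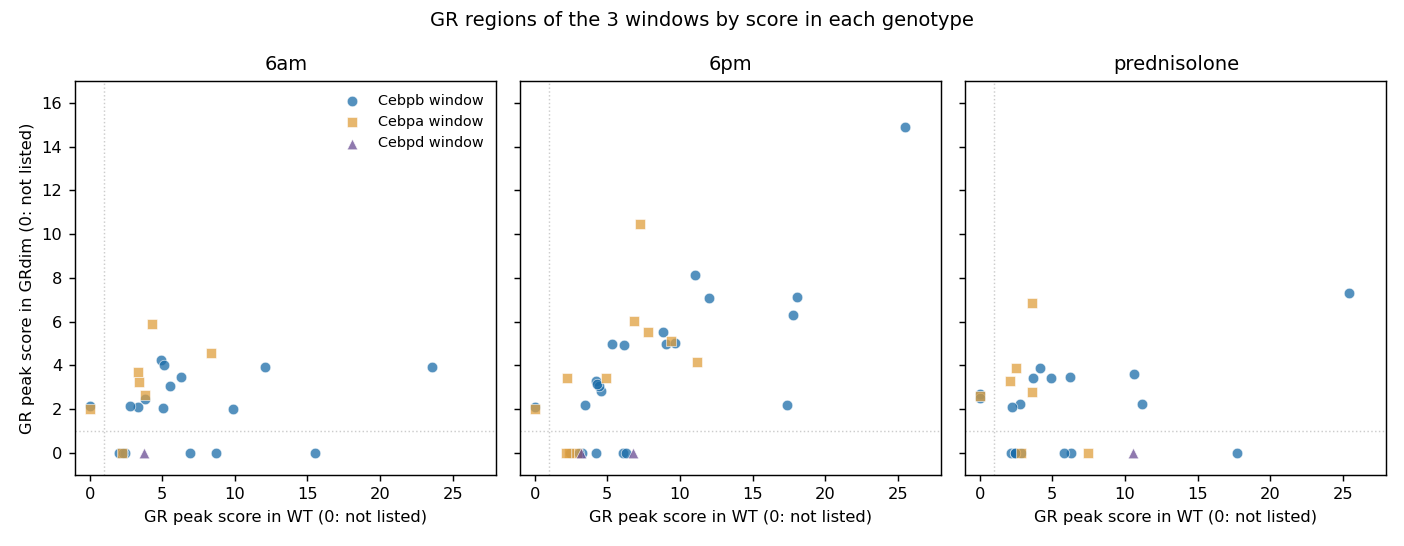
GR regions of the 3 windows by deposited score in WT (x axis) and in GRdim (y axis), 1 panel per condition, with 0 for a region that is not listed. In each panel the Cebpb region with the highest WT score (23.56, 25.47 and 25.41) is farthest right, and the Cebpa region at 77.6 kb is the highest square, with 5.90, 10.47 and 6.84 in GRdim.

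ChIP-exo borders followed the same division between the loci. In the Cebpb window WT listed 259, 212 and 196 borders and GRdim 15, 125 and 89. Their summed signal was 178, 270 and 218 RPM in WT and 6.42, 56.8 and 26.9 RPM in GRdim, over 2590, 2120 and 1960 bp of borders in WT and 150, 1250 and 890 bp in GRdim. Per border this was 0.688, 1.27 and 1.11 RPM in WT and 0.428, 0.454 and 0.302 RPM in GRdim. WT was therefore higher both in the number of borders and in the mean signal of each, at every condition. The libraries differed in their total number of borders. As a share of all borders of its library, the window held 0.389%, 0.388% and 0.398% in WT. In GRdim it held 0.104%, 0.351% and 0.253%, so at 6pm the shares were close.

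In the Cebpa window the genotypes were closer. WT listed 76, 68 and 48 borders, with a mean of 0.348, 0.579 and 0.329 RPM per border, and GRdim 27, 83 and 71, with 0.396, 0.391 and 0.359 RPM. GRdim thus listed more borders than WT at 6pm and after prednisolone, though not at 6am, where its library had the fewest borders. As a share of all borders of the library, GRdim was higher at every condition. The shares were 0.188%, 0.233% and 0.202% in GRdim and 0.114%, 0.124% and 0.0976% in WT. In the Cebpd window WT listed 10, 8 and 22 borders with 3.48, 6.12 and 19.0 RPM in sum over 100, 80 and 220 bp, and 0.348, 0.766 and 0.865 RPM per border.

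For each named region the plus-strand and the minus-strand border with the most tags within 100 bp of the GR centre were taken as a pair. At the strongest Cebpb region the pair held 727 plus and 963 minus tags in WT at 6am, 866 and 1006 at 6pm, and 1254 and 1625 after prednisolone. In GRdim it held 25 and 21, 120 and 106, and 35 and 34 tags. As RPM of the pair, WT had 30.3 (exact Poisson 95% interval 28.9 to 31.8), 43.4 (41.5 to 45.4) and 52.6 (50.7 to 54.6), and GRdim had 1.45 (1.06 to 1.94), 5.16 (4.51 to 5.88) and 1.53 (1.19 to 1.93). The intervals of the genotypes did not overlap at any condition.

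The WT over GRdim ratio of this pair was 20.9 (exact conditional 95% interval 15.6 to 28.6), 8.42 (7.33 to 9.70) and 34.5 (27.1 to 44.4). Over all regions listed in both genotypes with both borders in both libraries, the medians were 0.984 (n = 1271), 1.79 (n = 2914) and 1.05 (n = 1546). A ratio at least as large was found in 0.236%, 1.96% and 0.129% of them. The strongest Cebpb region was therefore among the regions with the greatest genotype ratio, although GRdim listed a peak there in every condition. It was picked for its GR score, which was highest in WT, so its place among the ratios is a description and no test. The same applies to the other regions picked by score. The median listed border of a library held 11 to 18 tags, far fewer than either WT border of this pair. Within GRdim, the pair at 6pm was 3.55 times that of 6am (2.57 to 4.98), and 1 of 1114 regions (0.0898%), this one itself, was at least as high. The pair after prednisolone was 1.05 times that of 6am (0.713 to 1.56).

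The distance between the borders of this pair was 36, 38 and 34 bp in WT and 31, 31 and 42 bp in GRdim. The plus border lay at -14, -15 and -13 bp from the centre in WT and at -14 bp in all 3 GRdim libraries, so it was the minus border that differed in place, at 22, 23 and 21 bp in WT and 17, 17 and 28 bp in GRdim. The GRdim library of 6pm held a second minus border at 30 bp with 95 tags beside the one of 106 tags at 17 bp.

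At the 16 kb region the WT borders lay at -13 and 17 bp in all 3 libraries, 30 bp apart, with 285 and 441, 274 and 302, and 424 and 551 tags. The pair had 13.0 RPM (12.1 to 14.0), 13.4 (12.3 to 14.5) and 17.8 (16.7 to 19.0). GRdim listed 1 border within 100 bp, of 9 tags on the minus strand at 6pm (0.205 RPM). The 2 regions absent from the GRdim peak lists also had no GRdim border within 100 bp. Their WT pairs had 6.66, 3.92 and 5.39 RPM at -67.2 kb, with 31, 33 and 31 bp between borders, and 2.92, 2.11 and 3.35 RPM at -14.4 kb, with 38, 44 and 28 bp.

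Several of these WT pairs enclosed a second pair of borders, a pattern picked out after the values were seen. At 16 kb a minus border lay at -2 bp (192, 110 and 246 tags) and a plus border at 6, 5 and 6 bp (149, 128 and 196 tags). The left plus and minus borders were therefore 11 bp apart in each library and the right ones 11, 12 and 11 bp apart, inside an outer pair of 30 bp. At -67.2 kb the left borders were 11, 10 and 12 bp apart and the right ones 12, 14 and 12 bp, inside outer pairs of 31, 33 and 31 bp. The strongest Cebpb region had left distances of 12, 15 and 11 bp and right distances of 17, 20 and 15 bp in WT. There GRdim at 6pm had 12 and 14 bp inside 31 bp, with 57 and 50 tags on the inner borders. After prednisolone GRdim had 9 and 6 bp inside 42 bp. Other WT regions were less regular. At -14.4 kb the left and right distances were 12 and 21 bp at 6am and 31 and 25 bp at 6pm, with no inner pair after prednisolone. The 8.9 kb region had left distances of 10, 1 and 10 bp and right distances of 13, 13 and 12 bp.

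**Figure D4:**
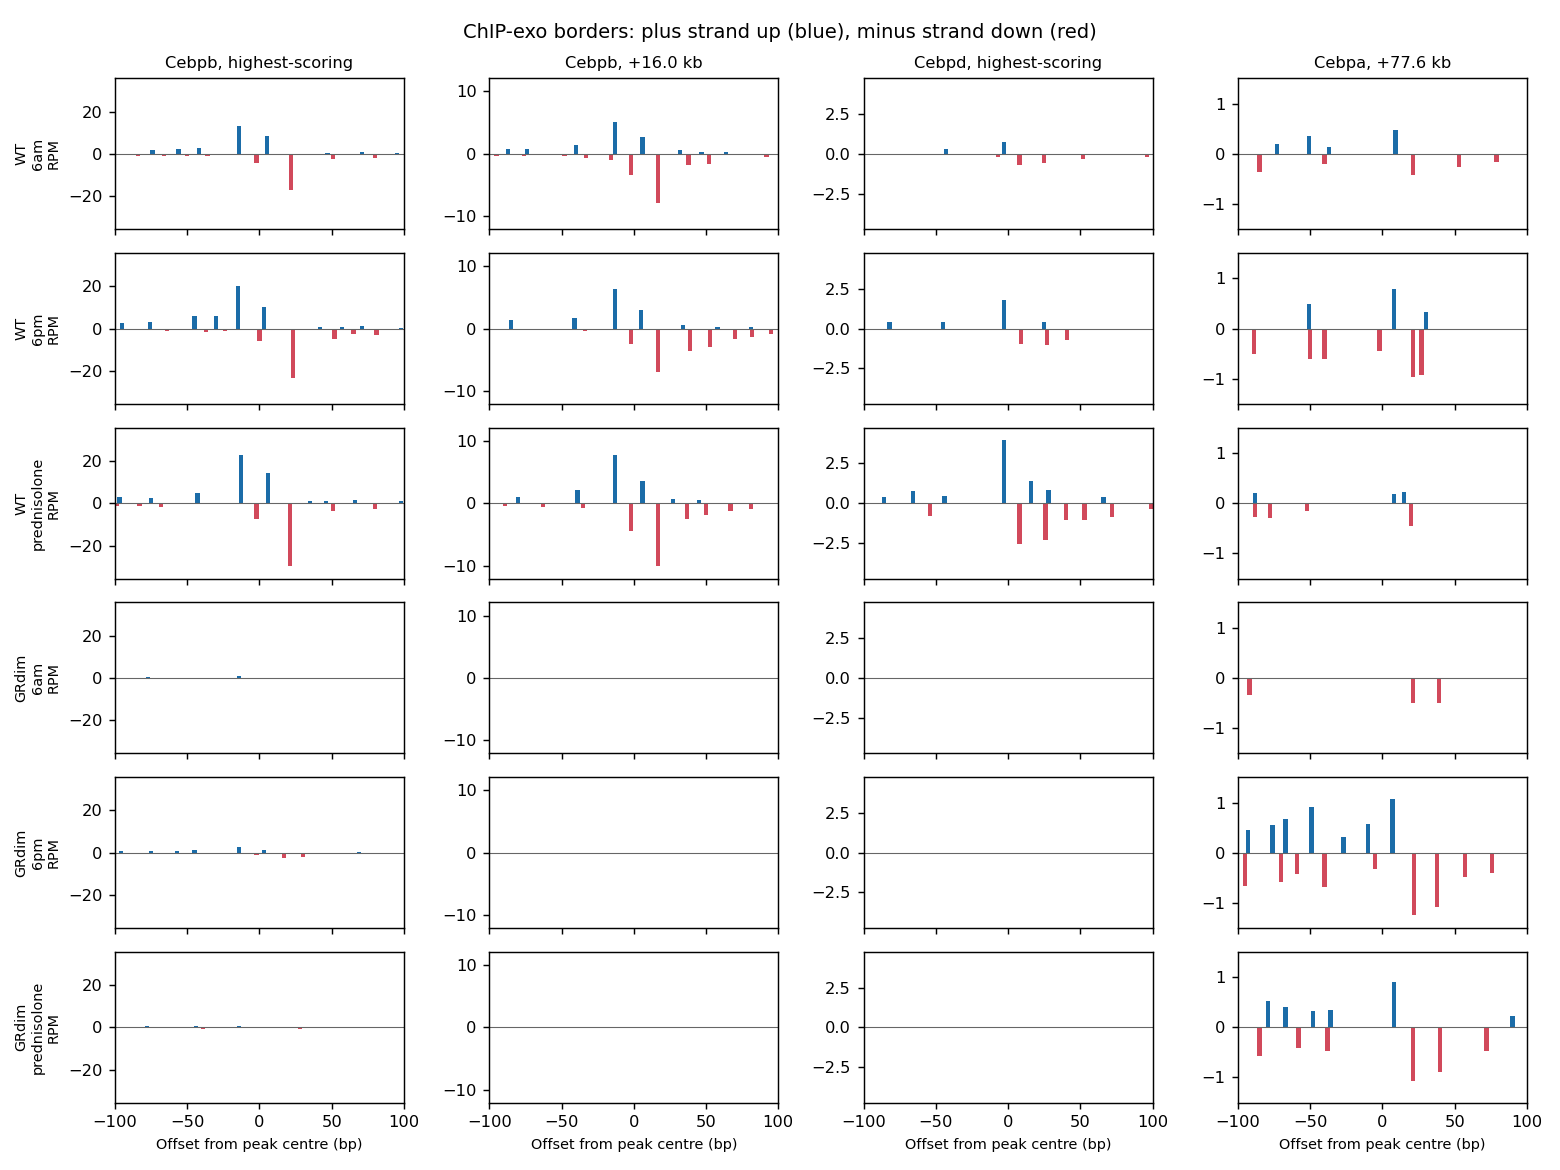
ChIP-exo borders within 100 bp of the GR centre in 4 regions (columns) and 6 libraries (rows), with plus-strand RPM drawn upward and minus-strand RPM downward on 1 scale per column. The 2 Cebpb regions show the outer pair and the inner pair in WT, the Cebpd column is empty in GRdim, the 9-tag border of GRdim at 6pm at 16 kb is too low to see on its scale, and the Cebpa region at 77.6 kb is tallest in GRdim at 6pm.

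Of the other Cebpb regions with the highest GR scores, only the one at -21.2 kb had a pair in all 6 libraries. The -21.2 kb pair had 6.34 (5.69 to 7.03), 10.4 (9.45 to 11.4) and 5.91 (5.28 to 6.59) RPM in WT and 0.854 (0.563 to 1.24), 1.42 (1.08 to 1.81) and 0.885 (0.632 to 1.21) in GRdim. The WT over GRdim ratios were 7.42, 7.34 and 6.67, which 2.99%, 3.29% and 5.56% of regions reached. The 8.9 kb pair was 31 bp apart in all 3 WT libraries with 1.62, 4.11 and 2.52 RPM, and 6pm was 2.54 times 6am (1.96 to 3.31).

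At 8.0 kb the genotype ratio was small, but the pairs differed in distance between the genotypes. The distances were 27 bp in WT and 110 bp in GRdim at 6pm, and -19 and 101 bp after prednisolone. At 6pm the plus border lay at -96 bp in WT and -97 bp in GRdim, so the minus border differed. With the search centred on each list's own peak, a choice made after seeing the data, -19 bp became 46 bp. The other distances given for this region did not move, while that of WT at 6am went from -73 to 37 bp. The pair had 2.34 RPM in WT and 1.55 in GRdim at 6pm, a ratio of 1.51 (1.10 to 2.08), and 0.804 and 0.820 RPM after prednisolone, a ratio of 0.98 (0.619 to 1.56). At -157.0 kb the ratios were 1.14 (0.710 to 1.86), 1.89 (1.24 to 2.92) and 1.02 (0.586 to 1.77), again between borders of different distances, 70, 78 and 75 bp in WT and 15, 61 and -10 bp in GRdim. Over the Cebpb regions listed as peaks in both genotypes with a pair in both, the median ratio was 7.42 for 3 regions at 6am. It was 1.96 for 11 at 6pm and 3.26 for 7 after prednisolone. Left out after prednisolone were chr2:167668041-167668284 (1.5) and chr2:167668539-167668749 (0.938), which had pairs in both genotypes but were not listed in both. At 6pm and after prednisolone the highest ratios were those of the strongest peak and of the -21.2 and 7.1 kb regions.

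At Cebpa, the pair of the highest-scoring region had 3.82 (3.33 to 4.37), 4.34 (3.74 to 5.01) and 2.43 (2.04 to 2.88) RPM in WT. GRdim had 1.07 (0.744 to 1.5) and 0.708 (0.481 to 1.00) at 6am and 6pm, and with prednisolone only plus borders. The WT over GRdim ratios were 3.56 (2.47 to 5.27) at 6am and 6.13 (4.17 to 9.27) at 6pm, which 8.97% and 4.84% of regions reached.

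The 77.6 kb region stood the other way round. WT had 0.916 (0.682 to 1.2), 1.76 (1.39 to 2.21) and 0.676 (0.476 to 0.932) RPM, and GRdim had 2.33 (1.90 to 2.83) at 6pm and 1.97 (1.58 to 2.43) after prednisolone. GRdim at 6am listed only minus borders there. At 6pm the WT over GRdim ratio was 0.757 (0.555 to 1.03), and 98.6% of regions had a ratio at least that high. With prednisolone it was 0.343 (0.227 to 0.509), and 99.9% of regions did. After prednisolone this was therefore among the regions with the lowest WT over GRdim ratio. The borders were 13 bp apart in WT at 6pm and in GRdim after prednisolone, and 12 and 15 bp in WT at 6am and GRdim at 6pm. In WT after prednisolone the strongest borders were 5 bp apart, on 12 and 25 tags. With the search centred on each list's own peak, a choice made after seeing the data, the WT distances became -140 bp at 6am and 150 bp after prednisolone, and those at 6pm and in GRdim did not move.

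The 59.4 kb pair had 0.585 RPM in WT and 1.28 in GRdim after prednisolone, a ratio of 0.456 (0.286 to 0.713), and 0.898 against 0.791 at 6am, a ratio of 1.14 (0.689 to 1.92). These ratios compare borders of different distances, -35 bp in WT and 9 bp in GRdim after prednisolone, and 22 and 88 bp at 6am. The WT borders after prednisolone held only 15 and 17 tags. At 53.3 kb the 3 ratios were 0.797, 0.898 and 0.745, and each interval included 1. The borders of that region were 25 bp apart in WT at 6am, and 24 and 25 bp in GRdim at 6am and after prednisolone, with the plus border at -80 bp in each. In the other libraries the distance differed, at -10 bp in WT at 6pm, -20 bp in WT after prednisolone and 14 bp in GRdim at 6pm. In the 4 Cebpa regions with pairs in both genotypes after prednisolone, the ratio ran from 0.343 to 0.771, all below the median of 1.05 over the genome. The highest-scoring region, which had no GRdim pair, is not among these 4. In each of the 4 the pairs of WT and GRdim differed in distance. They were 69 and 88 bp at 25.9 kb, -20 and 25 bp at 53.3 kb, -35 and 9 bp at 59.4 kb, and 5 and 13 bp at 77.6 kb.

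**Figure D5:**
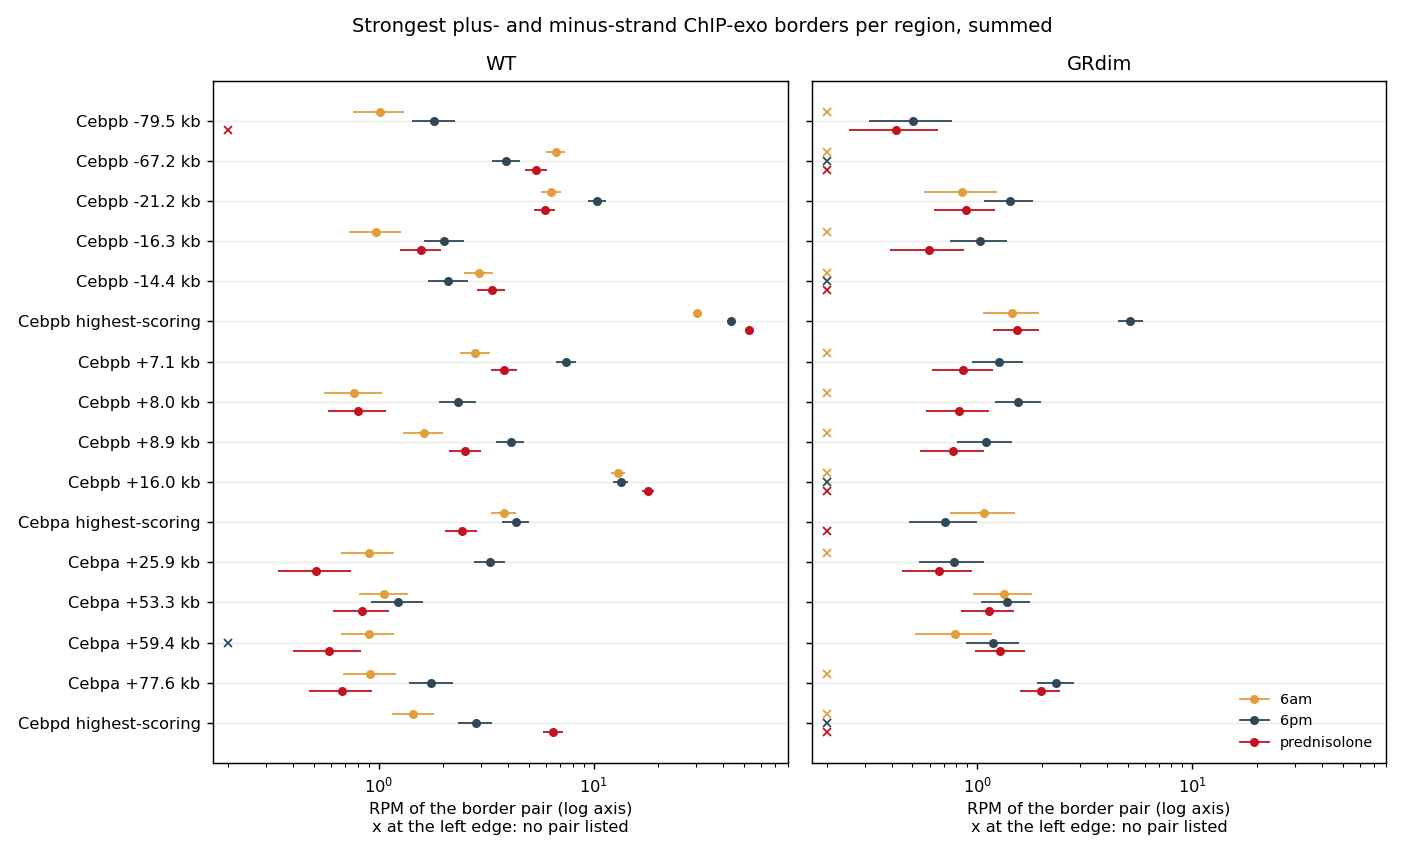
Summed RPM of the strongest plus and minus border per named region in WT (left) and GRdim (right) on a log axis, with exact Poisson 95% intervals as bars and a cross at the left edge where no pair is listed. The strongest Cebpb region runs from 30.3 to 52.6 RPM in WT and from 1.45 to 5.16 in GRdim, while the Cebpa region at 77.6 kb is higher in GRdim (2.33 and 1.97) than in WT at 6pm and after prednisolone.

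At Cebpd, the WT pair held 41 plus and 40 minus tags at 6am, 78 and 44 at 6pm, and 216 and 139 after prednisolone. This was 1.45 (1.15 to 1.81), 2.83 (2.35 to 3.38) and 6.49 (5.83 to 7.20) RPM. The 3 intervals did not overlap. Prednisolone was 4.46 times 6am (3.50 to 5.76), a ratio that 19 of 2450 regions (0.776%) reached and far above the median of 1.02. The plus border stayed at -3 bp and the minus border at 8, 27 and 8 bp, so the pairs were 11, 30 and 11 bp apart. The 30 bp at 6pm rested on a small margin, since a minus border of 42 tags lay at 9 bp beside the one of 44 tags at 27 bp. A second minus border was also listed at 25 bp (33 tags) at 6am and at 26 bp (128 tags) after prednisolone. A plus border at 16 bp (78 tags) was listed after prednisolone, and the nearest one at 6pm lay at 25 bp (19 tags).

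Prednisolone over 6am ratios were also taken for the other loci. Of the 10 Cebpb regions listed in both WT lists and with a pair in both libraries, 7 had a ratio above the median of 1.02 over the genome. The ratios of the 10 ran from 0.582 to 1.74 with a median of 1.25. In Cebpb regions with both pairs but not listed in both, ratios ran from 0.353 (0.194 to 0.613) at chr2:167656403-167656743 to 1.34 (0.709 to 2.57) at chr2:167668539-167668749. All 5 Cebpa regions listed in both lists and with both pairs were below 1.02, from 0.57 to 0.794 with a median of 0.651. The intervals at 53.3 kb (0.528 to 1.19), 59.4 kb (0.404 to 1.04) and 77.6 kb (0.47 to 1.15) included 1. Those of the strongest Cebpa region and of the 25.9 kb region (0.346 to 0.923) did not. The strongest Cebpb region was 1.74 times 6am (1.63 to 1.84), which 11.0% of 2450 regions reached, and the strongest Cebpa region 0.636 times (0.508 to 0.794). A peak at the edge of the Cebpa window (chr7:35850047-35850246), listed only in WT after prednisolone with 2.85, went the other way with a ratio of 3.26 (2.15 to 5.09). It is not counted among the 5 since it was not listed at 6am.

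Between 6am and 6pm in WT, 13 Cebpb regions listed at both times had ratios from 0.589 to 3.03 with a median of 1.64. Of these, 5 were above the median of 1.81 over the genome. The region chr2:167545075-167545298, with both pairs but not listed in WT at 6am, had 3.41 (1.91 to 6.36). The regions absent from GRdim were the lowest of the named ones, with 0.589 (0.488 to 0.708) at -67.2 kb and 0.721 (0.552 to 0.938) at -14.4 kb, ratios that 99.4% and 98.3% of regions reached. The 16 kb region had 1.03 (0.918 to 1.15), and the strongest region 1.43 (1.34 to 1.53). In contrast the 7.1, 8.0 and 8.9 kb regions had 2.64, 3.03 and 2.54. The region chr2:167656403-167656743, picked out after its values were seen, also had a low ratio, 0.671 (0.405 to 1.09), and GRdim listed it at 6am and 6pm. At Cebpa the 25.9 kb region had the highest ratio, 3.67 (2.64 to 5.17), which 2.50% of 3959 regions reached.

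As lists, 23 of 24 WT peaks of 6am were found at 6pm (97.5% over the whole list) and 23 of 34 of 6pm were found at 6am (39.5%). Of the prednisolone peaks, 18 of 23 were found at 6am (74.2%), and 18 of 24 peaks of 6am were found after prednisolone (55.2%). In GRdim, 17 of 25 peaks of 6pm were found at 6am (39.8%) and 17 of 18 the other way (92.9%). For prednisolone and 6am in GRdim the counts were 14 of 16 (64.3%) and 14 of 18 (64.8%). The Wilson intervals for 6pm peaks found at 6am, 50.8% to 80.9% in WT and 48.4% to 82.8% in GRdim, lay above the whole-list shares. With lists of equal length they held them, at 65.3% to 93.6% beside 78.6% in WT and 62.4% to 94.5% beside 70.8% in GRdim. Neighbouring peaks of the windows are not independent draws, so the place of these intervals is a description and no test.

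Border distances were sorted into 3 classes, of 10 to 12, 24 to 26 and 29 to 31 bp. A border within 100 bp was listed for 24 of 24, 31 of 34 and 23 of 23 WT peaks (97.5%, 76.8% and 95.2% over the genome), and borders of both strands for 23, 22 and 21 of them (85.9%, 45.5% and 79.2%). In GRdim 12 of 18, 21 of 25 and 16 of 16 peaks had a border (77.2%, 81.9% and 97.0%), and 6, 18 and 15 had both (43.4%, 52.3% and 80.8%). Nearly all WT peaks of the windows thus had a border, and fewest GRdim peaks did at 6am, the library with the fewest tags. Over the 3 conditions, the classes held 8, 1 and 9 of 66 WT peaks with both borders, and 1, 5 and 2 of 39 GRdim peaks. By condition, 29 to 31 bp held 3 of 23, 3 of 22 and 3 of 21 WT peaks with both borders (9.12%, 6.18% and 13.1% over the genome) and 1 of 6, 1 of 18 and 0 of 15 GRdim peaks (2.39%, 2.31% and 2.24%). The 10 to 12 bp class held 4, 1 and 3 WT peaks (10.3%, 5.38% and 13.6%) and 0, 0 and 1 GRdim peaks (5.79%, 3.39% and 5.52%). The 24 to 26 bp class held 1, 0 and 0 WT peaks (4.17%, 2.74% and 3.43%) and 1, 1 and 3 GRdim peaks (5.43%, 4.47% and 6.10%). These counts are too few to set against the genome.

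C/EBPβ was listed in 43 regions, 27 at Cebpb, 14 at Cebpa and 2 at Cebpd. It was listed in all 3 conditions in 12, 7 and 0 of them, counts for which no share over the genome was taken. Of its 6am peaks, 24 of 28 were found at 6pm (93.4% over the whole list) and 20 of 28 after prednisolone (78.8%). In reverse, 24 of 35 peaks of 6pm (77.1%) and 20 of 26 after prednisolone (77.7%) were found at 6am. In the Cebpb window it scored 13.83, 9.95 and 10.23 at -84.6 kb (chr2:167585520-167585734) and 12.50, 12.26 and 10.20 at -157.0 kb. These were its highest scores of the window at 6am and after prednisolone, while at 6pm the -21.2 kb region (11.44) stood between them. GR in WT scored only 2.02 and 3.43 at 6am and 6pm at -84.6 kb and was not listed after prednisolone, and scored 4.91, 8.84 and 3.68 at -157.0 kb, where GRdim scored 4.27, 5.51 and 3.42. At Cebpa the highest C/EBPβ region was at -9.7 kb (chr7:35866013-35866231), with 7.07, 6.35 and 6.97, and GR there scored 2.25 and 2.89 at 6am and 6pm in WT and was not listed in GRdim.

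C/EBPβ without GR was found in 14 of the 43 regions (10, 3 and 1), against 58.9% of 30751 C/EBPβ regions over the genome. The strongest of these were at -202.3 kb (chr2:167467825-167468046), with 3.74, 6.20 and 6.75, and at -11.0 kb (chr2:167659096-167659313), with 5.18, 4.87 and 6.43. At Cebpa they were weaker, 2.67 at 6pm alone for chr7:35874628-35874827 and 2.21, 2.75 and 3.81 for chr7:35912244-35912450. At Cebpd the region at 34.2 kb (chr16:15924055-15924254) was listed after prednisolone alone with 3.20. Both Cebpd regions with C/EBPβ were therefore listed in the prednisolone list and in neither of the others. Over the whole list, 77.7% of the C/EBPβ prednisolone peaks were found at 6am. The share of regions listed after prednisolone alone was not taken, and 2 regions are too few to set against it.

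Among the GR regions, 29 of 42 held a C/EBPβ peak in any list (17, 11 and 1), beside 82.5% over the genome. By condition, C/EBPβ overlapped 14 of 24, 23 of 34 and 10 of 23 WT GR peaks, or 58.3% (38.8 to 75.5), 67.6% (50.8 to 80.9) and 43.5% (25.6 to 63.2). The whole lists had 79.7%, 83.2% and 75.7%, above each of these intervals. As the window peaks are neighbours and not independent draws, this is a description and no test. With lists of equal length the window shares were 20.8% (9.24 to 40.5), 38.2% (23.9 to 55.0) and 8.7% (2.42 to 26.8), beside 38.7%, 60.4% and 36.8%, so the 6am interval then held the whole-list share. At Cebpb the counts were 8 of 17, 15 of 22 and 7 of 16, and at Cebpa 6 of 6, 8 of 10 and 2 of 6. Where both factors were listed, their centres were a median of 18, 31 and 56 bp apart (n = 14, 23 and 10), and the GR score was the higher one in 11, 19 and 8 regions, though scores of different lists have no common scale.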

How the data were processed

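Livers of WT and GRdim mice were profiled by ChIP-seq (9 peak lists) and GR ChIP-exo (6 border lists). Per the submitters' processing notes, Bowtie, HOMER and mm9 were used, and neither roles nor versions are given in the sources used here. As deposited by the authors, a ChIP-seq list gives intervals with a score, and all intervals were 200 bp long. The authors' ChIP-exo lists, per the file headers, give for each border of 10 bp a tag count, an RPM value (tags per M tags), a height (a signal value, not used further) and a strand. No list gives the total depth. For ChIP-exo it was taken as tags divided by RPM, and for ChIP-seq it is unknown. The 2 RNA polymerase II and 12 input samples were not analysed here.

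With Python 3.11.15, peaks and borders were assigned to windows by centre, and peaks overlapping by at least 1 bp were merged. Named are up to 8 (Cebpb) or 5 (other windows) regions with the highest GR score, regions of all WT and no GRdim lists or of GRdim alone, and the 2 strongest C/EBPβ regions without GR in each window. The regions at -157.0, -84.6 and -9.7 kb and the one at the edge of the Cebpa window are named for their C/EBPβ or prednisolone peaks, chosen after their values were seen. Windows, lists and classes were chosen with earlier results of these data known. Counts have exact Poisson, ratios exact conditional and shares Wilson intervals at 95%. Shares over whole lists are the background. The scripts were tested on simulated data. Other overlaps, thresholds, list lengths, window sizes and border rules were tried. Peak sequences were not used here.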

Additional observations from a re-analysis of the deposited data

How the results depend on the processing

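Of 138 alternatives for the main results, 101 left the value within 1.5 times (counts) or inside its interval (shares) and 37 moved it. Of 266 for single windows or lists, 212 did so and 54 moved it. No paired analysis was possible because each list is a pool of its replicates. For the same reason no replicate could be left out.

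The overlap of GR with C/EBPβ depended on list length. With lists of equal length by score, 20.8%, 38.2% and 8.7% of WT GR peaks (6am, 6pm and prednisolone) held C/EBPβ, beside 38.7%, 60.4% and 36.8% of the whole lists, and with the higher-scoring 50% of each list 21.1% at 6am and 38.5% at 6pm. Equal length also gave 81.5% of WT peaks found in GRdim at 6pm (whole lists 74.8%), 84.0% of WT 6pm peaks found at 6am (78.6%) and 84.2% in GRdim (70.8%). The higher-scoring 50% gave 100% for GRdim peaks of 6am found in WT and found at 6pm in GRdim, for WT peaks of 6am found at 6pm and for WT prednisolone peaks found at 6am. It gave 91.7% for C/EBPβ peaks of 6am found after prednisolone. Centres within 400 bp gave 100% for WT peaks of 6am found at 6pm.

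With a score of at least 4, regions numbered 10 for GRdim and 11 for C/EBPβ at Cebpb. At Cebpa they numbered 6 for WT, 5 for GRdim and 6 for C/EBPβ, and at Cebpd 1 for WT and 1 for C/EBPβ. Borders of at least 20 tags numbered 336 in WT and 48 in GRdim at Cebpb, 70 and 46 at Cebpa, and 22 in WT at Cebpd. Extending the Cebpd window by 50 kb added 1 GRdim border. Requiring 20 tags left borders of both strands at 59.3% of WT and 18.6% of GRdim peaks, with 0 GRdim pairs of 10 to 12 bp and 1 of 24 to 26 bp. Taking the closest opposite borders gave 14, 2 and 1 WT pairs of 10 to 12, 24 to 26 and 29 to 31 bp, and 3 and 1 GRdim pairs of the first and second class. Borders within 60 bp gave 2 WT pairs of 24 to 26 bp. The border distances of the report thus belong to the rule of the most tags. In each case the cause was not tested beyond how the alternative is built.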

Other observations

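Each list is 1 pool, so the spread between animals is unknown and no difference between genotypes or conditions was tested. The GRdim library of 6am was the smallest, and its missing borders can be weak ones. The search for borders was also centred on each list's own peak, a choice made after seeing the data. At the regions with the highest GR scores, 7 WT and 2 GRdim pairs were then 29 to 31 bp apart. Regions named on other grounds, such as that at -67.2 kb, were left out of that count.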
